A study of Mus musculus with 8 samples.

Results

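Genes that mark B cells and plasma cells were followed in mouse liver after loss of Dicer1 in hepatocytes and after a mutagen. The 8 members were Jchain, Cd79a, Cd79b, Ms4a1, Tnfrsf17, Pou2af1, Xbp1 and Blnk, and all probes that bore one of these names, or an older symbol such as Igj for Jchain, were taken. This gave 10 probes for 8 genes, of 41174 probes for 27670 gene names on the array, with 2 probes each for Jchain and Ms4a1. Of these, 9 probes for 7 genes were well above background on both arrays of at least 1 group and were tested. The Tnfrsf17 probe was not well above background on any array.

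Liver RNA was hybridised to 8 one-colour arrays, 2 for each of 4 groups of C57BL/6 mice, labelled as female and 6 months old. The knockout mice (KO) were Albumin-Cre;Dicer1loxP/loxP, in which the albumin promoter, active in hepatocytes, drives Cre. Their controls (WT) were littermates with the Dicer1loxP/loxP alleles, which all 4 groups carried, and are labelled without Cre. Mice of both genotypes received 1 intraperitoneal injection of the vehicle dimethylsulfoxide (DMSO) or of N-ethyl-N-nitrosourea (ENU), an alkylating mutagen, at 120 mg/kg in 2 ml/kg. ENU-treated livers were studied 15 days later. For the vehicle groups the labels name no day, and the number of mice behind each RNA is not stated. The design crosses genotype with treatment, so it asks what loss of Dicer1 and exposure to ENU each did to liver RNA.

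A B cell recognises antigen through a surface immunoglobulin that signals through the paired chains encoded by Cd79a and Cd79b, and the adaptor encoded by Blnk links this receptor to its downstream enzymes. Ms4a1 encodes the surface protein CD20, which B cells lose when they become plasma cells, the cells that secrete antibody. Pou2af1 encodes a coactivator that binds with octamer-binding factors at immunoglobulin promoters, Xbp1 a transcription factor that expands the secretory pathway, Tnfrsf17 a survival receptor of plasma cells, and Jchain the joining chain of polymeric IgA and IgM. The liver holds B cells and plasma cells among its resident and passing leukocytes, while Xbp1 is also active in hepatocytes. In bulk liver RNA, fewer cells of a type and less RNA per cell cannot be told apart.

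The arrays a and b of a group differed by about the noise between spots of a probe, with a median standardised difference of 0.692 to 0.844 where spot noise alone gives 0.688, against 10.6 to 26.7 between groups. They were therefore counted as 1 RNA sample, which leaves 4 samples. A comparison of 1 group with another sets 1 sample against 1 and has no test, so its fold is given as a description, and probes are counted as higher or lower from 2-fold on. Rose and fell are kept for probes with an adjusted p under 0.05 in limma over the 4 samples, with a genotype and a treatment term. That fit has 1 residual degree of freedom, which is the difference between the ENU differences of the genotypes. In limma this residual is moderated over all probes, so the p-values and SEs of a probe rest partly on the other probes. They do not measure the spread between mice. All ENU arrays lay on 1 slide and all vehicle arrays on another, so ENU and slide cannot be told apart. KO and WT shared each slide, but at different positions, so genotype and position cannot be told apart. Saturated spots numbered 0, and 54.7% to 69.3% of spots per array stood well above background. The targeted gene was checked first. The Dicer1 probe A_51_P333060 read -1.92 and -1.80 in WT vehicle, -2.61 and -2.40 in WT ENU, -4.13 and -4.50 in KO vehicle, and -3.94 and -4.10 in KO ENU, as log2 of the signal over the array's 75th percentile. It fell in KO by 1.99 ± 0.298 log2 (SE; limma adjusted p = 0.0183). The other Dicer1 probe, A_51_P483059, had a difference of -0.38 (limma adjusted p = 0.207), and which exons were deleted is not stated in the labels.

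The joining chain and the octamer coactivator rose in KO liver, and Cd79b, Blnk and Ms4a1 by its probe A_52_P483336 were at their lowest in WT vehicle. Over the 4 samples 4 of the 9 member probes rose in KO and 0 fell: both Jchain probes, Pou2af1 and 1 of the Ms4a1 probes. Among all 27235 probes tested, 15.9% rose and 14.5% fell. At an unadjusted p under 0.05 there were 6 member probes, where 46.5% of all probes were, and the others were Cd79b, higher, and Xbp1, lower. Cd79a, Pou2af1 and both Ms4a1 probes were not well above background on both WT vehicle arrays and entered the test through other groups. With median centring in place of the 75th percentile, the split over all probes was 3840 higher to 6894 lower, and with normexp background correction 3145 to 6321, where the 75th percentile gave 4334 to 3953. The median of all probes was -0.14 log2 in KO minus WT on vehicle and -0.07 after ENU, and it moved to -0.36 and -0.26 with median centring.

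Promoter sequences are shown because Pou2af1, which rose in KO, acts through octamer motifs. Any part of Pou2af1 in the values of the other members was not tested. Of the 8 genes, 6 were matched in RefSeq's promoter table (build GRCm38.p6): Jchain, Cd79a, Tnfrsf17, Pou2af1, Xbp1 and Blnk. Each entry holds 250 bases before and 50 after the start. Both strands were searched for the octamer ATGCAAAT, the EBF core CCCNNGGG, the CCAAT box and CCACG. Printed are the 2 members that passed by every probe tested, Jchain (chr5:88527848-88528147, minus strand) and Pou2af1 (chr9:51213440-51213739, plus strand), and the member with an octamer, Blnk (chr19:40994172-40994471, minus strand). Each reads 5′ to 3′ along the gene, with matches in capitals.
Jchain: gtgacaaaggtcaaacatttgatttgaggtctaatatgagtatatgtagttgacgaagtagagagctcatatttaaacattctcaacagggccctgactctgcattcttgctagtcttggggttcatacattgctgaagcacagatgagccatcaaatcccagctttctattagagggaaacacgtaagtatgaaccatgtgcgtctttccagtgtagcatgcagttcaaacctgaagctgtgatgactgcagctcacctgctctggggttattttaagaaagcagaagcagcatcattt
Pou2af1: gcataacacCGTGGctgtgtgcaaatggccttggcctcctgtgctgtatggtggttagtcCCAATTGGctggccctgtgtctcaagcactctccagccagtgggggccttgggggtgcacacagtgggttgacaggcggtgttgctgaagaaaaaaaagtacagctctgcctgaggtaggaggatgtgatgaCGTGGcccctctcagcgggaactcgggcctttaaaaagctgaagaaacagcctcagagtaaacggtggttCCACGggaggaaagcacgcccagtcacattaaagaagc
Blnk: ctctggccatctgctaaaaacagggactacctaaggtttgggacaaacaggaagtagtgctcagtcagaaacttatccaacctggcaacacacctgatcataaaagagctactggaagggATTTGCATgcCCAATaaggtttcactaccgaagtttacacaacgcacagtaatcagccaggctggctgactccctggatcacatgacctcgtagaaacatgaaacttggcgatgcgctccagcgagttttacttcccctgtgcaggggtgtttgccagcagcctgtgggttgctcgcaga
The Blnk promoter held the octamer on the opposite strand, as ATTTGCAT, 130 bases before the start, and a CCAAT box 120 bases before it. An octamer is found in 1.74% of the 32851 promoters in the table. The Pou2af1 promoter held CCAAT boxes on both strands, which overlap each other, and 3 matches to CCACG. The CCAAT box is found in 37.4% of all promoters and CCACG in 32.8%. The Jchain, Tnfrsf17 and Xbp1 windows held none of the 4 motifs, and that of Cd79a held 1 CCACG. The EBF core was in none of the 6 windows and in 13.7% of all promoters. These matches describe letters in a window and are not measured binding.

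Jchain, the chain that joins IgA and IgM units into polymers, had the largest genotype differences among the members. Its probe A_51_P150705 (chromosome 5, 88461523 to 88461582, mm7) read -2.96 and -2.73 on the 2 WT vehicle arrays. It read -1.79 and -1.76 in WT ENU, -0.40 and -0.38 in KO vehicle, and 1.1 and 1.12 in KO ENU. The 4 groups did not overlap, and they stood in this order from lowest to highest. The processed signal behind these values ran from 57.0 and 65.9 in WT vehicle to 1442 and 1483 in KO ENU. KO was 5.48-fold higher than WT on vehicle and 7.38-fold higher after ENU.

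The other Jchain probe, A_51_P150710 (88461353 to 88461412 on the same chromosome), kept that order. It read -1.34 and -1.3 in WT vehicle, -0.53 and -0.62 in WT ENU, 1.40 and 1.33 in KO vehicle, and 2.40 and 2.42 in KO ENU. KO was 6.44-fold and 7.92-fold higher on vehicle and after ENU. Both Jchain probes thus placed each KO sample above both WT samples, whatever the treatment. Over the 4 samples A_51_P150705 rose in KO by 2.67 ± 0.214 log2 (SE) and A_51_P150710 by 2.84 ± 0.201, with limma adjusted p of 0.00847 and 0.00786. Without treatment as a term, A_51_P150705 no longer passed (adjusted p = 0.0658). On vehicle the difference of A_51_P150705 was 1.56 log2 with normexp in place of 2.46.

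**Figure D1:**
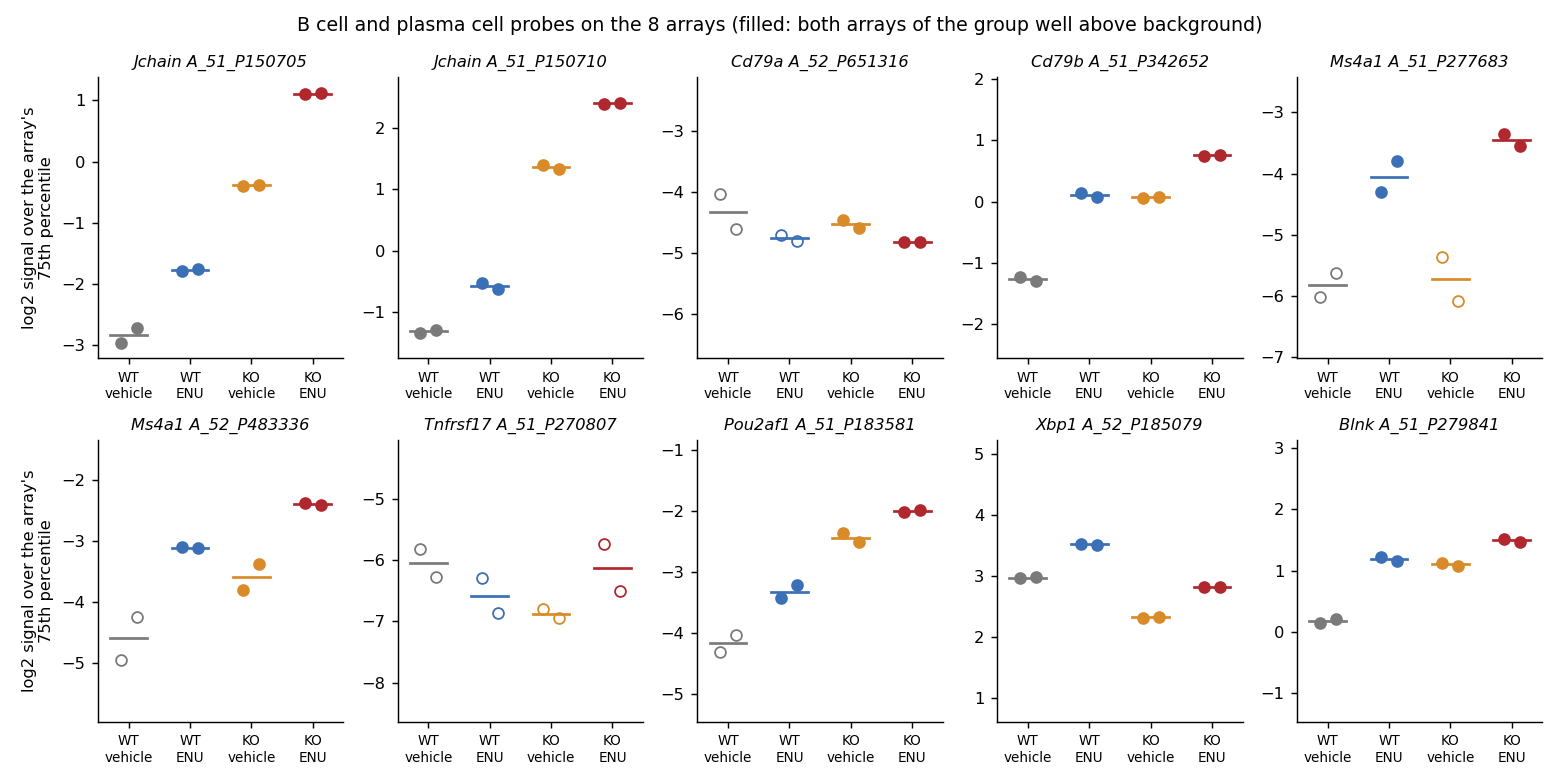
Log2 signal over the array's 75th percentile (vertical axis, the same span of values in every panel) for the 10 member probes in the 4 groups, with 1 point per array and a line at the mean of the 2 arrays; filled points mark groups with both arrays well above background. Jchain climbs from WT vehicle to KO ENU without overlap, Xbp1 is lowest in KO vehicle, and Tnfrsf17 has open points in all groups.

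Pou2af1, the coactivator of immunoglobulin transcription, followed the same order. Its probe A_51_P183581 (chromosome 9, 51218585 to 51218644, mm7) read -4.31 and -4.03 in WT vehicle, where 1 of 2 arrays was well above background, and -3.43 and -3.22 in WT ENU. It read -2.36 and -2.52 in KO vehicle and -2.02 and -1.99 in KO ENU. No groups overlapped. KO was 3.32-fold higher on vehicle and 2.49-fold higher after ENU, and over the 4 samples Pou2af1 rose by 1.52 ± 0.213 log2 (SE; limma adjusted p = 0.0162). With normexp the rise was 0.56 log2 (adjusted p = 0.038). Without treatment as a term it did not pass (adjusted p = 0.074).

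Cd79b, the beta chain of the receptor's signalling pair, was lowest in WT vehicle and highest in KO ENU. A_51_P342652 (chromosome 11, 106420507 to 106420566, mm7) read -1.23 and -1.29 in WT vehicle, 0.14 and 0.08 in WT ENU, 0.06 and 0.08 in KO vehicle, and 0.75 and 0.76 in KO ENU. WT ENU and KO vehicle both gave 0.08 on 1 array and lay as close to each other as their own arrays did. KO was 2.51-fold higher than WT on vehicle and 1.56-fold higher after ENU. The difference over both treatments, 0.99 ± 0.251 log2 (SE), narrowly missed the threshold (limma adjusted p = 0.0504). It passed without the second KO vehicle array (adjusted p = 0.0495) and with normexp (adjusted p = 0.0251), and in 4 of 17 alternatives in all, with adjusted p from 0.0239 to 0.279.

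Cd79a, the alpha chain of the same pair, gave a signal near background and no such order. A_52_P651316 (chromosome 7, 21688822 to 21689079, mm7) read -4.03 and -4.62 in WT vehicle, -4.71 and -4.81 in WT ENU, -4.47 and -4.60 in KO vehicle, and -4.82 and -4.82 in KO ENU. Neither WT vehicle array was well above background there, and 1 of the 2 WT ENU arrays was. The WT vehicle and KO vehicle arrays overlapped, and the KO difference over both treatments was -0.13 ± 0.191 log2 (SE; limma adjusted p = 0.619). The 2 chains of the pair therefore gave different patterns on these arrays.

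Ms4a1, which encodes CD20, had larger differences with ENU than with genotype. Its probe A_52_P483336 (chromosome 19, 10931002 to 10931061, mm7) read -4.94 and -4.25 in WT vehicle, -3.10 and -3.12 in WT ENU, -3.80 and -3.37 in KO vehicle, and -2.37 and -2.41 in KO ENU. Groups did not overlap, and WT ENU lay above KO vehicle, unlike for Jchain and Pou2af1. This probe rose in KO by 0.86 ± 0.200 log2 (SE; limma adjusted p = 0.042).

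The call of Ms4a1 A_52_P483336 was lost without the first WT vehicle array (adjusted p = 0.0617) and without the second KO vehicle array (adjusted p = 0.0501). It was also lost when the KO difference was taken with normexp (0.11 log2), with quantile normalization (0.66) and with median centring (0.66). Over all alternatives the adjusted p ran from 0.0417 to 0.597. On vehicle the normexp difference was -0.0395 log2 where the signal as deposited gave 1.0. A_51_P277683 (10931462 to 10931521), the other probe, read -6.02 and -5.62 in WT vehicle, -4.31 and -3.79 in WT ENU, -5.37 and -6.09 in KO vehicle, and -3.36 and -3.55 in KO ENU. It was not well above background in either vehicle group, whose arrays overlapped. Its KO difference was 0.34 ± 0.224 log2 (SE; limma adjusted p = 0.293).

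Blnk, the adaptor below the receptor, resembled Cd79b. A_51_P279841 (chromosome 19, 40822777 to 40822836, mm7) read 0.14 and 0.20 in WT vehicle, 1.23 and 1.15 in WT ENU, 1.13 and 1.07 in KO vehicle, and 1.52 and 1.47 in KO ENU. WT vehicle stood apart at the bottom, and WT ENU lay just above KO vehicle without overlap. KO was 1.91-fold higher than WT on vehicle and 1.24-fold higher after ENU. The difference over both treatments was 0.62 ± 0.242 log2 (SE; limma adjusted p = 0.121).

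Xbp1, the secretory pathway factor that hepatocytes also use, went the other way with genotype. A_52_P185079 (chromosome 11, 5476970 to 5477029, mm7) read 2.96 and 2.98 in WT vehicle, 3.52 and 3.52 in WT ENU, 2.31 and 2.33 in KO vehicle, and 2.83 and 2.82 in KO ENU. KO was 1.57-fold lower on vehicle and 1.62-fold lower after ENU, and no groups overlapped. The difference of -0.67 ± 0.188 log2 (SE) did not pass (limma adjusted p = 0.0614). It passed with median centring (-0.88, adjusted p = 0.0298), with normexp (-0.64, adjusted p = 0.0256) and when tested among probes well above background on all arrays (adjusted p = 0.0341). With quantile normalization it was -0.39 (adjusted p = 0.181).

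Tnfrsf17, the receptor BCMA of plasma cells, could not be measured. A_51_P270807, placed by the files on an unplaced contig of chromosome 16 (436643 to 436702, mm7), read between -6.94 and -5.74 over the 8 arrays. None of these values was well above background, so they have no order.

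In single pairs, 5 of the 9 member probes were 2-fold or more higher in KO on vehicle and 0 were lower, where 15.9% of all probes were higher and 10.6% lower. After ENU 3 were higher and 0 lower, against 15.4% and 13.1% of all probes. The members' median difference was 1.0 log2 on vehicle and 0.65 after ENU. The KO and WT arrays did not overlap for 7 of the 9 probes on vehicle and for 9 after ENU, against 89.5% and 89.3% of all probes, since arrays a and b repeat 1 RNA sample. The genotype difference was smaller after ENU for Cd79b, Blnk, Pou2af1 and Ms4a1 A_52_P483336, and larger for both Jchain probes. This change between treatments is the residual of the fit and has no test.

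**Figure D2:**
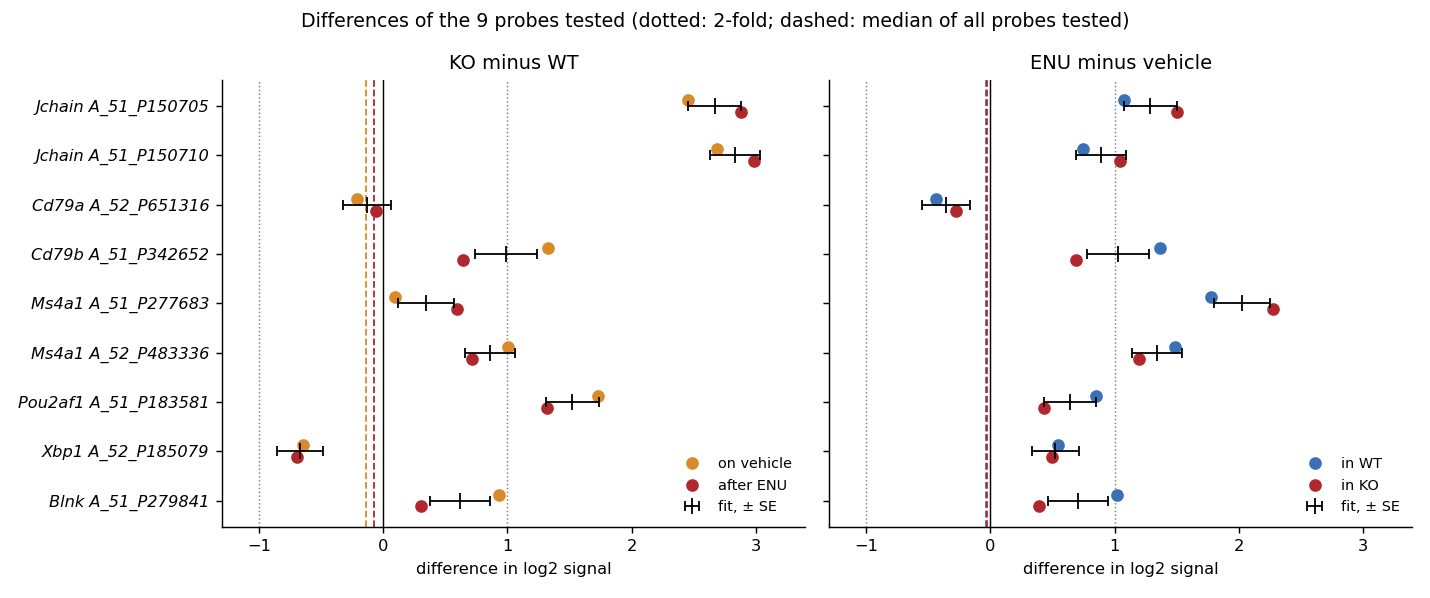
Differences in log2 signal (horizontal axis) of the 9 tested member probes, KO minus WT on the left and ENU minus vehicle on the right; points are single pairs of samples, black bars the fit over 4 samples with its SE, dotted lines 2-fold and dashed lines the median of all probes tested. Jchain and Pou2af1 lie above 2-fold in both genotype pairs, and Xbp1 lies below 0 on the left and above it on the right.

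After ENU the member probes other than Cd79a had higher values than on vehicle in both genotypes, but none passed the test. In limma over the 4 samples 0 of the 9 passed, as did 0% of the 27235 probes, of which 6215 had an unadjusted p under 0.05 and the smallest adjusted p was 0.139. At an unadjusted p under 0.05 there were 8 of the 9 member probes, against 22.8% of all probes. These comparisons share the arrays with those of genotype, and WT vehicle serves both as the control for ENU and as the control for KO.

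In WT, 5 of the 9 member probes were 2-fold or more higher after ENU and 0 lower, against 7.17% and 5.4% of all probes. In KO, 4 were higher and 0 lower, against 4.61% and 4.95%. The medians over members were 1.02 log2 in WT and 0.69 in KO, where all probes had -0.04 and -0.03. The arrays of the treatments did not overlap for any of the 9 probes in either genotype, where 81.9% of all probes in WT and 86.6% in KO did not. For Cd79a the vehicle values were higher, though neither WT vehicle array was well above background. Without the first WT vehicle array, 3 probes and not 5 were 2-fold higher in WT. With normexp, 1 was higher in WT and 2 in KO.

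The ENU differences of Ms4a1 rested on vehicle signals near background and depended on the background correction. A_52_P483336 was 2.80-fold higher in WT, where 1 of 2 vehicle arrays was well above background, and 2.29-fold higher in KO. Over both genotypes its difference was 1.34 ± 0.200 log2 (SE; limma adjusted p = 0.139). A_51_P277683 was at least 1.07-fold higher in WT and at least 2.83-fold higher in KO, since its vehicle arrays were not well above background. These bounds compare the ENU mean with the lowest signal that was well above background on each vehicle array, or with the probe's own where that was higher. With normexp the ENU difference of A_52_P483336 was 0.48 log2 and that of A_51_P277683 0.31, where Jchain A_51_P150705 had 0.91.

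Jchain A_51_P150705 was 2.10-fold higher after ENU in WT and 2.83-fold higher in KO, with a difference of 1.29 ± 0.214 log2 (SE; limma adjusted p = 0.139). Cd79b was 2.58-fold higher in WT and 1.61-fold higher in KO (1.03 ± 0.251 log2, limma adjusted p = 0.156). Blnk was 2.03-fold and 1.31-fold higher, and Pou2af1 1.80-fold and 1.35-fold. Xbp1 was 1.46-fold and 1.41-fold higher, so its ENU difference ran against its genotype difference (0.52 ± 0.188 log2, limma adjusted p = 0.214). The ENU differences of Cd79b, Blnk and Pou2af1 were smaller in KO than in WT, which has no test.

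Immunoglobulin chains, the product that Jchain joins and Pou2af1 helps transcribe, rose in KO. Under the listed names 27 probes bore 6 gene names, 26 of them were tested, and 21 rose and 0 fell. At an unadjusted p under 0.05, 1 probe was lower. The background was 15.9% rising and 14.5% falling, as above. These genes form multigene families with similar sequences, so a probe may read several of them. Most of the probes bore the names Igl-V1 or Igh-VJ558, and several overlapped in position, so they are not separate results. By the brightest probe of each name, 5 of 6 names rose and 0 fell, against 17.1% and 15.4% of all genes. The median KO difference was 2.67 log2 on vehicle and 2.93 after ENU. With normexp 18 rose and the medians were 0.90 and 1.69.

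A heavy chain probe that the files name Igh-VJ558, A_51_P509679 (chromosome 12, 110781031 to 110781090, mm7), read 2.55 and 2.51 in WT vehicle, 3.19 and 3.17 in WT ENU, 5.61 and 5.62 in KO vehicle, and 6.56 and 6.51 in KO ENU. It rose in KO by 3.22 ± 0.198 log2 (SE; limma adjusted p = 0.00765). This is the order that both Jchain probes had. The name is that of a variable segment family, but on mm7 the probe lies beyond the Igh-4 probes on the side away from the Igh-6 probes, so which part of the heavy chain it reads is not settled by its name.

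A lambda light chain probe, Igl-V1 A_51_P503756 (chromosome 16, 18611466 to 18611525), read -1.75 and -1.77 in WT vehicle, -0.04 and 0.17 in WT ENU, 2.45 and 2.45 in KO vehicle, and 2.99 and 2.99 in KO ENU. KO was 18.5-fold higher on vehicle and 7.59-fold higher after ENU. The kappa probe Igk-V1 A_52_P125897 had an 11.3-fold higher signal in KO than in WT after ENU, and at least 4.55-fold on vehicle, with WT too dim to measure. Of the 26 probes, 12 were not well above background on either WT vehicle array.

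The probes for the heavy chain of IgM, Igh-6, differed in their order of groups. A_51_P485421, spotted 10 times on each array, read -4.58 and -4.17 in WT vehicle, -1.69 and -1.67 in WT ENU, -2.60 and -2.60 in KO vehicle, and -0.50 and -0.51 in KO ENU. WT ENU lay above KO vehicle, the order also seen for Ms4a1, and 4.26-fold separated the 2 KO groups. It rose in KO by 1.47 ± 0.238 log2 (SE; limma adjusted p = 0.0208). A_52_P358360 read -0.33 and -0.28 in WT vehicle, 0.79 and 0.81 in WT ENU, 1.02 and 1.06 in KO vehicle, and 1.17 and 1.18 in KO ENU, which is the order of Jchain, and its KO difference was 0.86 (limma adjusted p = 0.0986).

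The IgG1 heavy chain Igh-4 had the opposite order with treatment. A_51_P122752 read -0.82 and -0.71 in WT vehicle, -1.44 and -1.44 in WT ENU, 0.77 and 0.64 in KO vehicle, and -0.34 and -0.37 in KO ENU. It was 1.59-fold lower after ENU in WT and 2.08-fold lower in KO, while it rose in KO by 1.28 ± 0.210 log2 (SE; limma adjusted p = 0.0215). Over all 26 probes, the ENU difference had a median of 0.77 log2 in WT and 1.45 in KO, which were 0.14 and 1.01 with normexp. It was 2-fold or more higher for 12 and lower for 1 in WT, against 7.17% and 5.4% of all probes. In KO it was higher for 16 and lower for 1, against 4.61% and 4.95%. The folds in WT are limited by the 12 probes that were not well above background on either WT vehicle array.

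**Figure D3:**
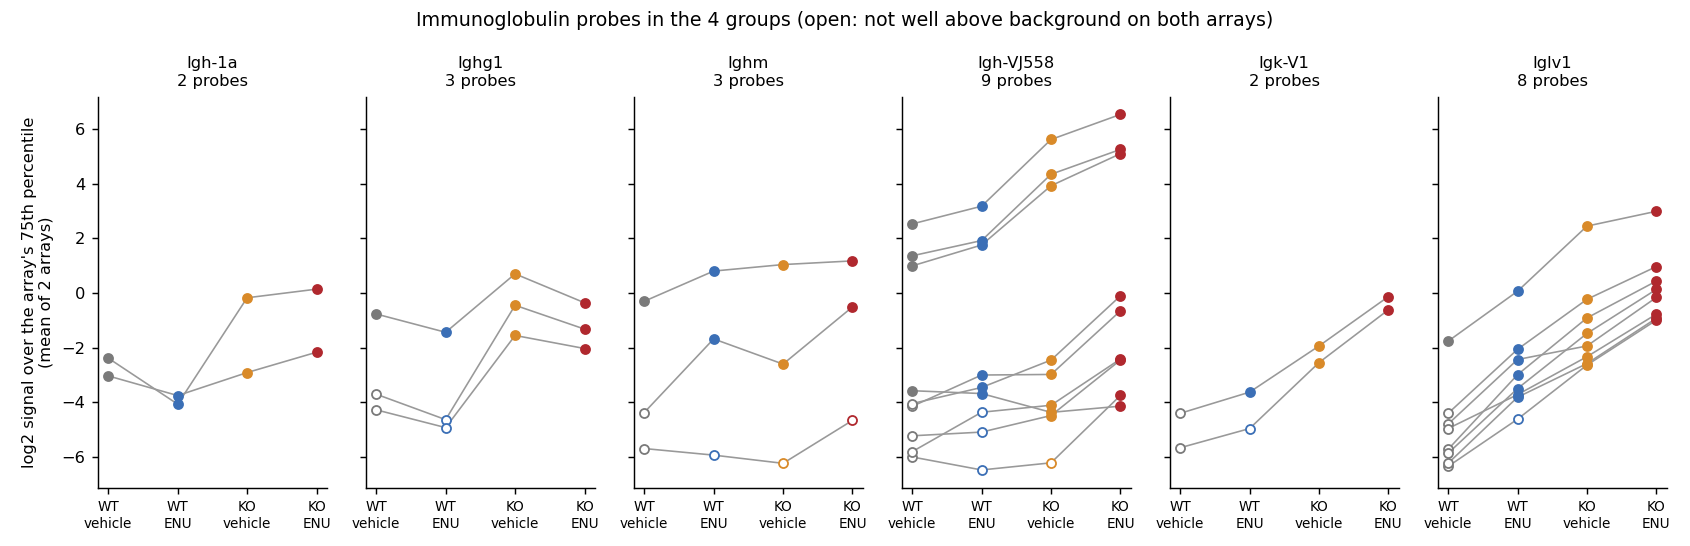
Mean log2 signal over the array's 75th percentile (vertical axis) of the 27 immunoglobulin probes in the 4 groups, 1 line per probe and 1 panel per gene name; open points mark groups in which not both arrays were well above background. Most lines climb from WT to KO, the 3 Ighg1 lines (Igh-4 in the files) drop from vehicle to ENU in both genotypes, and both Igh-1a lines drop from vehicle to ENU in WT.

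Lists of related genes, each gene read by its brightest probe, were set against all 18156 genes tested, of which 17.1% rose in KO and 15.4% fell, with a median difference of -0.12 log2. At an unadjusted p under 0.05, 22.5% of all genes were higher and 26.1% lower. Of 15 tested B cell markers 3 rose and 0 fell (5 and 0 at an unadjusted p under 0.05), with a median of 0.40 that was -0.01 with normexp. They were the transcription factor gene Spib (1.54 log2), the B cell surface inhibitor Cd72 (1.45) and the Fc receptor-like Fcrla. Fcrla was not well above background on any WT array, so it could pass only through KO, and after ENU it was at least 2.13-fold higher. Pax5 and Ebf1, the factors that fix B cell identity, and the kinase gene Blk were not well above background on both arrays of any group.

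Plasma cell markers were divided: 5 of 15 rose and 3 fell, with a median of 0.42 that was -0.17 with normexp. Tnfrsf13b, the receptor TACI, rose by 2.68 log2. Its fold was at least 2.55 on vehicle, where no WT array was well above background, and 4.54 after ENU, where 1 of 2 WT arrays was. The surface receptor gene Slamf7 rose by 1.66, and Prdm1, the factor that drives plasma cell differentiation, rose by 1.57. For both, no WT vehicle array was well above background, and 1 of 2 WT ENU arrays was. On vehicle Prdm1 was at least 1.81-fold higher in KO, and no lower bound could be given for Slamf7. Derl3, which works in the disposal of misfolded secretory proteins, fell by 1.78 log2. The summed signal of the 15 plasma cell markers, in multiples of the array's 75th percentile, was 131 to 134 in WT vehicle, 48.9 to 50.6 with ENU in WT, 60.8 to 61.5 in KO vehicle and 46.3 to 46.7 in KO ENU, but most of it in WT vehicle was Creld2 (101.3 to 104.2), which also stands on the list of the unfolded protein response. Without Creld2, a choice made after seeing the data, the sums were 29.6 to 29.8, 26.4, 29.4 to 29.9 and 29.6 to 29.8. Bright genes such as Sdc1 (mean 3.49 log2 in WT vehicle and 3.66 in KO ENU) and Fkbp11 (2.37 and 3.48) made up much of these. In KO ENU Tnfrsf13b, Slamf7 and Prdm1 read -2.51, -2.56 and -2.75 log2, so the sums hardly reflect the markers that rose. Of the precursor B cell markers 2 of 7 rose and 1 fell, with a median of -0.23 over both treatments but 0.22 on vehicle alone. They were the receptor genes Il7r and Cd93, and Dntt, which adds bases at immunoglobulin joints and fell by 1.65. Il7r was not well above background on any WT array and could pass only through KO, with lower bounds of 1.60-fold (vehicle) and 2.69-fold (ENU), while Cd93 rose by 1.29. Rag1, Rag2 and Igll1 were not well above background on both arrays of any group.

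Of the genes of B cell receptor signalling, the pathway of Cd79a, Cd79b and Blnk, 8 of 24 rose and 0 fell (14 and 1 at an unadjusted p under 0.05), with a median of 0.71. The adaptor gene Dapp1 rose by 2.89 log2, the phosphatase gene Inpp5d by 1.86 and Plcg2, the phospholipase that Blnk recruits, by 1.63. Dapp1 read -4.72 and -4.05 in WT vehicle, -4.44 and -4.36 in WT ENU, -1.41 and -1.32 in KO vehicle, and -1.62 and -1.66 in KO ENU. The KO arrays lay above the WT arrays under both treatments, and 1 of 2 arrays in each WT group was well above background. Several genes of this pathway are also used by myeloid cells and T cells.

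Of the ligands, receptors and signal carriers of the BAFF and APRIL system, which keeps B cells and plasma cells alive, 6 of 9 rose and 0 fell (7 and 0 at an unadjusted p under 0.05). The median was 1.28 log2, and 0.61 with normexp. Besides Tnfrsf13b, Relb rose by 2.42, Nfkb2 by 1.39 and the ligand gene Tnfsf13b, which encodes BAFF, by 1.28. Tnfrsf17 belongs to this list and was not measured. Among the partners of Pou2af1 6 of 10 rose and 1 fell, with a median of 1.15 that was 0.21 with normexp. Spib, Ikzf1 (1.53) and Irf8 (1.37) rose, while Bcl6, the repressor of plasma cell differentiation that hepatocytes also express, fell by 1.76.

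Genes of the unfolded protein response and the secretory pathway, many of them known targets of Xbp1, were also examined. Of 32 tested, 12 fell and 0 rose (21 and 0 at an unadjusted p under 0.05), with a median of -0.76 log2. With quantile normalization 3 fell and the median was -0.29, and with median centring 20 fell. After Derl3, the largest falls were those of Sdf2l1 by 1.55, Hyou1 by 1.27 and Derl2 by 1.16, which fold or remove proteins in the endoplasmic reticulum. Hepatocyte markers also fell, 7 of 11 with 0 rising (11 and 0 at an unadjusted p under 0.05) and a median of -1.0. With quantile normalization 3 fell and the median was -0.45, and with median centring 11 fell.

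Of the genes for transport of polymeric immunoglobulin and for homing of the cells that make it, 4 of 11 rose and 2 fell, with a median of 0.59 that was -0.05 with normexp. Pigr, the receptor that carries J chain-bound IgA and IgM across epithelial cells, fell by 1.96 ± 0.426 log2 (SE; limma adjusted p = 0.0366). With quantile normalization 2 genes of this list rose and 0 fell, so the calls of Pigr and Ccl25 were lost. Pigr read 4.81 and 4.81 in WT vehicle, 4.59 and 4.52 in WT ENU, 3.64 and 3.63 in KO vehicle, and 1.83 and 1.80 in KO ENU. This is the reverse of the order of Jchain. Ccl25, a ligand for homing to the gut, fell by 1.33, and the integrin gene Itgb7 rose by 1.37. The chemokine receptor gene Cxcr4 rose by 2.51, though its arrays of 1 sample differed widely, with -5.27 and -3.01 in WT ENU.

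**Figure D4:**
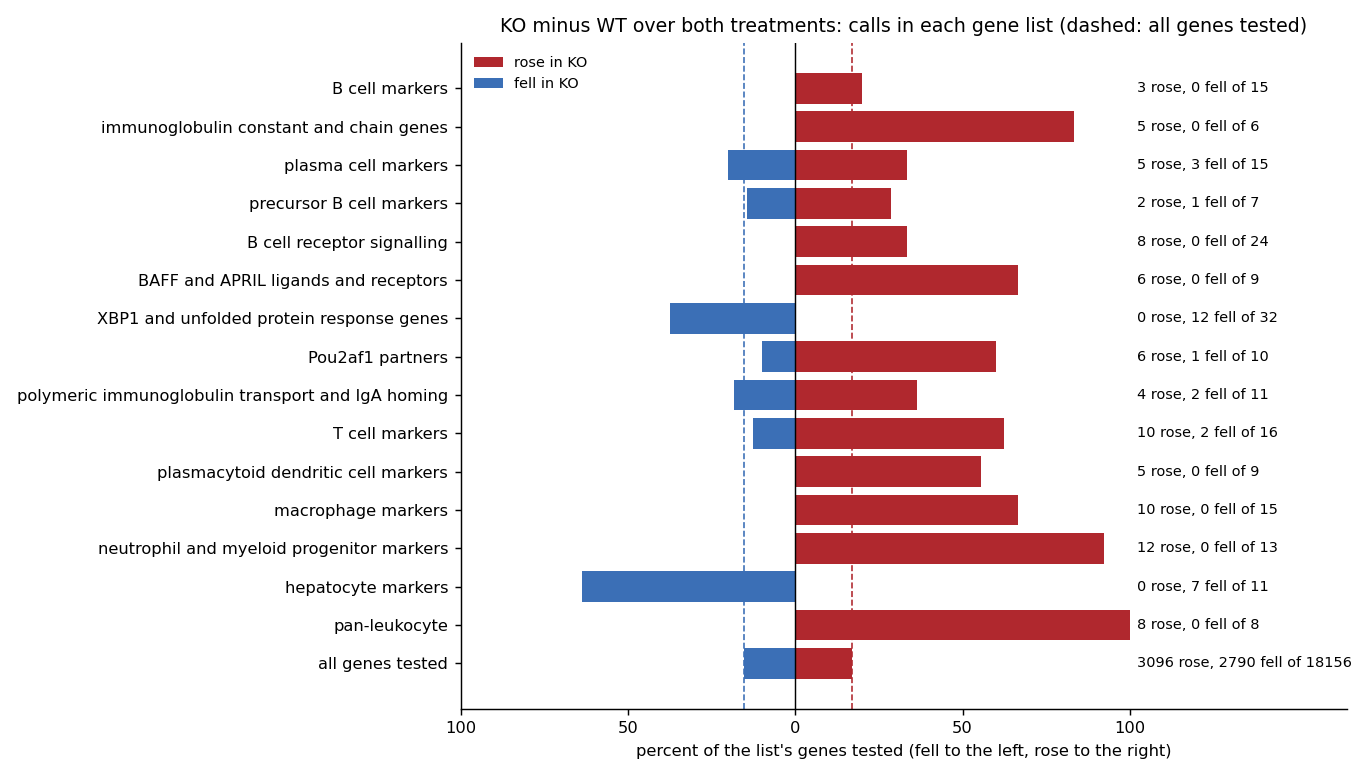
Percent of the tested genes of each list (horizontal axis) that rose in KO, to the right, or fell, to the left, in limma over the 4 samples; dashed lines and the bottom bar give all genes tested, and the counts are written at the right. Pan-leukocyte, neutrophil and immunoglobulin genes extend furthest to the right, and hepatocyte and unfolded protein response genes extend to the left.

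Among markers of other leukocytes, more rose in KO than fell. All 8 pan-leukocyte genes rose, among them Coro1a by 2.36 log2, Cd52 by 2.16, Laptm5 by 1.80 and Ptprc, which encodes CD45, by 1.69. Their summed signal was 8.04 on both WT vehicle arrays, then 16.6 to 16.9 with ENU in WT, 34.3 to 34.8 in KO vehicle and 51.8 to 52.8 in KO ENU. This is the order of Jchain. The summed signal of the 15 B cell markers was 3.66 to 3.80, 4.33 to 4.39, 5.60 to 5.68 and 6.07 to 6.14 in those groups. Much of its rise came from Ighm (Igh-6 in the files), with means of -0.30 log2 in WT vehicle and 1.18 in KO ENU. Ighm did not pass (limma adjusted p = 0.0986) and also stands on the immunoglobulin list, so this sum hardly reflects the dimmer B cell markers. The summed signal of the 6 immunoglobulin names, by their brightest probes, was 7.67 to 7.73, 12.3 to 12.4, 59.2 to 59.5 and 104.2 to 107.4. Most of this sum came from the probe Igh-VJ558 A_51_P509679, with means of 5.62 log2 in KO vehicle and 6.54 in KO ENU. The next brightest there, Igl-V1 A_51_P503756, had 2.45 and 2.99.

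Of 16 T cell markers 10 rose and 2 fell, with a summed signal of 9.88 to 10.1, 10.3 to 10.4, 12.5 to 12.6 and 13.8 to 13.9 in the same order of groups. Those that rose included Cd8a (2.94), Thy1 (1.88), Lck (1.78) and Cd247, while the 2 that fell are not named here. Cd247 was not well above background on any WT array, with lower bounds of 1.02-fold (vehicle) and 2.66-fold (ENU). Of 15 macrophage markers 10 rose and 0 fell (12 and 0 at an unadjusted p under 0.05), with sums of 100 to 101, 167 to 170, 245 and 417 to 425. They included Cd14 (2.42), Lyz2 (2.38), Marco (1.88) and Mpeg1 (1.32). Of 13 neutrophil and myeloid progenitor markers 12 rose and 0 fell (12 and 0 unadjusted), with sums of 6.83 to 6.92, 9.38 to 9.51, 68.1 to 68.4 and 69.1 to 70.3. They included Mpo (4.32), Camp (3.83), Chil3 (3.6) and Lcn2 (3.55). Of the genes counted as risen, those well above background on no WT array, which could pass only through KO, were 3 of these 12, 1 of 10 T cell markers, 1 of 3 B cell markers, 1 of 5 plasma cell markers, 1 of 2 precursor markers and 1 of 6 Pou2af1 partners.

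Of 9 markers of plasmacytoid dendritic cells, which share genes such as Spib and Pou2af1 partners with B cells, 5 rose and 0 fell (6 and 0 at an unadjusted p under 0.05). Ly6d, which lymphoid precursors and some epithelia also express, rose by 5.94, Lair1 by 1.81, Cox6a2 by 1.72 and Pacsin1 by 1.56, while Siglech, the defining marker, was not well above background on both arrays of any group. Their summed signal was 58.5 to 58.6, 72.8 to 74.3, 106.8 to 106.9 and 58.9 to 61.3. The hepatocyte sum ran the other way, from 2183 to 2203 in WT vehicle through 1763 to 1835 (WT ENU) and 1128 to 1192 (KO vehicle) to 1079 to 1108 in KO ENU. For ENU, 0 genes of any list passed. The part of these other cell types in the values of the members was not tested.

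For each member well above background in every group, the genes with the nearest pattern were found among 14543 others, by Euclidean distance between profiles over the 4 samples, each centred on its own mean. For Jchain they were Ccnb2, Tacc3 and Sgo1, at 0.196 to 0.228 log2 units. For Cd79b they were Krt8, Dck and Ripk3 (0.0625 to 0.104), and for Blnk Elk3, Scamp5 and Angpt2 (0.0537 to 0.086). For Xbp1 they were Sqor, Mrpl37 and Oxr1 (0.0692 to 0.0712). With 4 points, a near pattern is a description of these samples.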

How the data were processed

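Liver RNA of 8 samples was read on one-colour Agilent arrays. The authors' deposited intensity columns were made with Agilent Feature Extraction, version 10.7.1.1 per the file headers and 10.5.1 in the submitters' processing notes, and the processed signal was already background-corrected. Of 45018 spots an array, 43379 were not controls. Spots of a probe were averaged without outlier spots, and the log2 of this deposited intensity was set relative to each array's 75th percentile, which ranged from 437 (WT vehicle) to 681 (KO ENU). Probes well above background on both arrays of a group were tested, which left 27235 probes (18156 genes by the brightest probe). Names came from a RefSeq table (GRCm38.p6), which matched 22951 probes by accession, 6659 by symbol and 3109 by synonym; the other 8455 bear the array design's name. Coordinates refer to mm7 (NCBI35), and no annotation of exons or UTRs of that build was used here.

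Arrays a and b of each group were compared over 157 to 183 probes spotted 5 or more times and averaged to 1 sample. R 4.3.3 and limma 3.58.1 fitted genotype and treatment over 4 samples, with Benjamini-Hochberg adjustment over all probes. Only this fit was tried on simulated data, which held no treatment effect that differed by genotype. With so few arrays the precision is limited.

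The members and lists were chosen with earlier results of these data known. Named were all members, up to 4 genes of each list with the largest difference among those that passed, and the 3 nearest profiles; genes not well above background and the immunoglobulin examples were chosen after their values were seen. A few named results are not reported here. The alternatives were normexp background correction, quantile normalization, median centring, other filters and probe rules, leaving out each array, and models without the other term or with the array letter as a block.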

Additional observations from a re-analysis of the deposited data

Results flagged for a closer look

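For 1 immunoglobulin probe the ENU difference ran in opposite directions in the genotypes, with no overlap of arrays. Igh-1a A_51_P311235 (12_random, 5440237 to 5440296, mm7) read -2.47 and -2.29 in WT vehicle and -4.10 and -4.03 in WT ENU, but -0.19 and -0.16 in KO vehicle and 0.14 and 0.14 in KO ENU. ENU was thus 3.21-fold lower than vehicle in WT and 1.25-fold higher in KO, and the ENU difference in KO minus that in WT was 2.00 log2. This difference was not tested, because it is the only residual of the fit. The other Igh-1a probe, A_51_P351953, read -3.55 and -2.51 in WT vehicle, -3.19 and -4.32 in WT ENU, -2.93 and -2.89 in KO vehicle, and -2.08 and -2.25 in KO ENU. Its ENU differences were -0.72 in WT, where the groups overlapped, and 0.74 in KO.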

How the results depend on the processing

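Jchain A_51_P150710 rose in KO under all 17 alternatives run, by 2.55 to 2.89 log2, with a limma adjusted p of 0.00175 to 0.0366. No member passed for ENU under any alternative. With normexp, 6321 probes were lower in KO and 3 lower after ENU, 3 member probes were 2-fold higher in KO on vehicle, 1 after ENU in WT and 2 after ENU in KO, and Ms4a1 A_52_P483336 turned to -0.0395 in KO minus WT on vehicle. With median centring 6894 probes were lower in KO. The cause was not tested for either. Among probes well above background on all arrays, which are fewer, 2815 were higher in KO, 15 higher and 32 lower after ENU, and the member counts were 3 in KO on vehicle, 3 after ENU in WT and 2 after ENU in KO. The brightest probe per gene gave 3 after ENU in WT and 2 in KO, and the mean of a gene's probes gave 3 on vehicle and 3 and 2 after ENU, since fewer probes stand for the same genes. Without the other factor as a term, which leaves its variation in the residual, 1779 probes were higher and 829 lower in KO, and 1 member probe rose.

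Leaving out each array in turn gave 4017 to 4334 probes higher and 3376 to 3908 lower in KO, 0 after ENU, and 3 to 4 member probes that rose. Members 2-fold higher numbered 4 to 5 in KO on vehicle, 3 in KO after ENU, 3 to 5 after ENU in WT and 3 to 4 after ENU in KO. Array letters did not pair samples (correlations of deviations from -0.03 to 0.10). With the letter as a replicate block over 8 arrays the differences were as without it, such as 2.67 for Jchain A_51_P150705 and 1.52 for Pou2af1, with no p-values, since arrays of 1 RNA are not replicates. The lowest signal well above background was -3.83 and -4.48 on the WT vehicle arrays and -5.59 to -4.45 on the others, which limits Ms4a1, Pou2af1 and Cd79a in WT vehicle.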
